A study of Mus musculus with 27 samples.

Results

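Mouse embryonic stem (ES) cells with a mutated SPOC domain of SPEN (SPOCmut) were compared with the parental line (WT) after 24 h of Xist induction, over all 270 X-linked genes of the deposited table. The comparison used 5 of the 27 samples of the series, namely the 3 treated SPOCmut clones C10, C2 and G1 and the 2 treated WT libraries. Untreated libraries of the same lines (3 and 2) served as the background. WT after 3 h and a line labelled SpenKO served as reference levels. All these cells were female, from a 129S X Cast cross, and carried a doxycycline-inducible TetOn promoter in place of the Xist promoter on the 129S allele, with a Bgl stem-loop array at the 3′ end of Xist. Doxycycline was given at 1.0 to 1.5 µg/mL, and untreated cells received none. Cells grew on mitomycin-inactivated mouse fibroblast feeders. WT is a single line and SPOCmut 3 clones, so line and genotype cannot be told apart. Which residues of SPOC were changed is not given in the sources used here.

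Xist, a long noncoding RNA, spreads over the X chromosome from which it is transcribed and silences that chromosome's genes. SPEN is a large RNA-binding repressor that is recruited by Xist RNA through its RNA recognition motifs. Its C-terminal SPOC domain is a protein interaction module that contacts corepressors, among them NCoR and SMRT with the histone deacetylase HDAC3. A line labelled as a SPOC mutant is therefore set beside WT here, but whether only the function of this domain is changed was not tested.

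The measurement was the allelic ratio of chromatin-associated RNA, the fraction of nuclear RNA that stays bound to chromatin and is rich in nascent transcripts. A ratio is read here as the part of a gene's allele-assigned reads that came from 129S, because Xist lay near 1 in every library. At 0.5 both X chromosomes gave equal RNA, and a fall means a smaller share from the X with the induced Xist. Less RNA from the 129S X and more RNA from the Cast X cannot be told apart in a ratio. In limma, a gene was called at a Benjamini-Hochberg adjusted p under 0.05 over the 270 genes, and a fall is the untreated mean minus the 24 h mean. Read depth is unknown, and nothing states that the WT libraries were separate cultures, so p-values measure the spread between libraries.

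The ratio of Xist was near 1 in both lines at both times, so it cannot show how far induction went. Xist stood at 0.998, 0.999 and 0.999 in the treated SPOCmut clones and at 0.998 and 0.999 in treated WT. Untreated, it was 0.974, 0.958 and 0.976 in SPOCmut and 0.980 and 0.996 in WT. Spen is not among the genes of the table, so the mutation itself was not checked.

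X-linked RNA kept a much more balanced allelic ratio in the SPOC mutant than in WT. The median over the 270 genes was 0.443 in C10, 0.449 in C2 and 0.446 in G1 after 24 h, against 0.291 and 0.305 in WT. The groups did not overlap, and the difference of the means was 0.148 (exact two-sided permutation p = 0.2, the smallest possible for 3 against 2 libraries). Untreated, the medians were 0.517 ± 0.00460 in SPOCmut (SD, n = 3) and 0.509 ± 0.00661 in WT (SD, n = 2). The mutant medians still lay below their own untreated level by 0.0714, with all 3 treated clones below all 3 untreated ones (exact permutation p = 0.1, the smallest possible). They also lay below the 0.504 ± 0.00173 of SpenKO at 24 h (SD, n = 2) and below the 0.483 ± 0.00228 that WT had reached after 3 h (SD, n = 2).

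**Figure D1:**
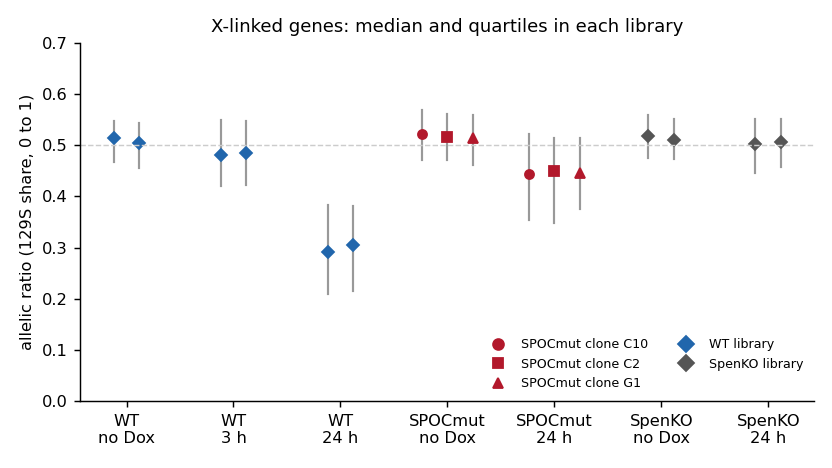
Median allelic ratio over 270 X-linked genes in each library (symbols, y axis from 0 to 0.7) with the quartiles over genes (vertical lines), by line and time of doxycycline; the dashed line marks 0.5. The 3 SPOCmut clones at 24 h sit at 0.443 to 0.449, between treated WT (0.291 and 0.305) and the untreated libraries.

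Gene by gene, 213 of 270 genes (78.9%) had a higher ratio in SPOCmut than in WT at 24 h and 1 (0.37%) a lower one in limma. The median difference was 0.133, with quartiles of 0.0810 and 0.181. In 228 genes (84.4%) all 3 clones lay above both WT libraries. Single clones behaved alike: C10 and C2 each lay above both WT libraries in 247 genes, and G1 in 249. Without doxycycline no gene was called between the lines in limma, with 26 higher and 8 lower at an unadjusted p under 0.05. The spread over replicates was similar in both lines, with a median SD per gene of 0.0251 over the treated clones and 0.0233 over the treated WT libraries.

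The SPOC mutant nevertheless responded to 24 h of doxycycline. In WT, 240 of 270 genes (88.9%) fell over 24 h, and in SPOCmut 134 (49.6%) did. None rose in either line in limma. At an unadjusted p under 0.05, 1 gene rose in SPOCmut, which was Xist itself, and 0 in WT. Of the 240 genes that fell in WT, 132 (55%) also fell in SPOCmut and 206 (85.8%) were higher in SPOCmut than in WT at 24 h. The 2 genes called in SPOCmut alone, 1700080O16Rik and 6330419J24Rik, were named after their values were seen. They had falls of similar size in WT (0.107 and 0.0902), and their responses did not differ in limma (adjusted p = 0.938 and 0.916). A test of the difference of the responses gave a smaller fall in SPOCmut for 158 genes (58.5%) and a larger fall for none, with 170 and 0 at an unadjusted p under 0.05.

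How much of the WT fall remained in the SPOC mutant was expressed as a retained share, the fall in SPOCmut as a percentage of the fall in WT. It was taken for the 225 genes with a called WT fall of at least 0.1. The median was 36.6%, with quartiles of 17.8% and 55.0% and extremes of -28.8% and 139.6%. By clone the median was 40.4% in C10, 39.8% in C2 and 31.5% in G1. In 30 genes less than 10% remained, and in 18 more than 75%. Computed on the log ratio to the untreated level, the median was 28.4%.

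Genes were sorted by these calls into classes named here as genes that needed SPOC, needed it in part, or fell without it. The names stand for calls in the SPOCmut clones, and a need for the domain itself was not tested. The sorting used the responses themselves, so the classes are described and not tested. In 72 genes (26.7%) the fall in SPOCmut was smaller than in WT and no fall was called in SPOCmut. In 86 genes (31.9%) the fall was smaller but still called. In 5 genes (1.85%) both lines fell and the 95% interval of the difference of responses lay within 0.1 of zero. Another 77 genes (28.5%) fell in WT but met none of these rules, and 30 (11.1%) had no called fall in WT. The undecided genes were measured less precisely, with a median half-width of the interval of 0.118 against 0.0672 and 0.0535 in the first 2 classes. The interval reached 0.0876 in Eda, which met the rule, and 0.106 in Apoo, the first gene to miss it (named after its values were seen). With a replicate block in every line, 10 genes met the rule instead of 5. That block is the clone in SPOCmut but only the library number in WT and SpenKO.

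**Figure D2:**
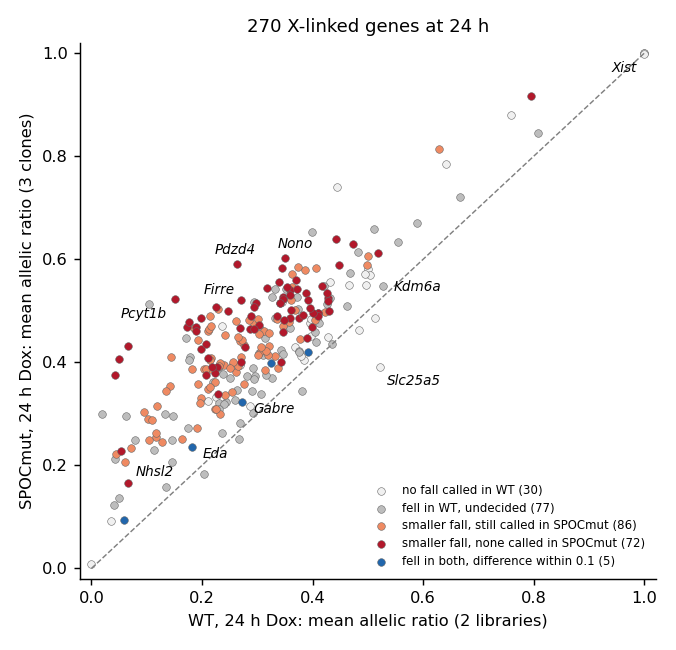
Mean allelic ratio of each of 270 X-linked genes at 24 h in WT (x axis, 2 libraries) and SPOCmut (y axis, 3 clones), coloured by class with the number of genes in brackets; the dashed line marks equal ratios. 263 genes lie above the line, the 72 dark red genes have a SPOCmut median of 0.495, and Slc25a5 lies below the line.

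The genes that needed SPOC fell in WT from a class median of 0.514 to 0.341, while SPOCmut stood at 0.515 untreated and 0.495 at 24 h. Their median fall was 0.178 in WT and 0.0212 in SPOCmut, a median retained share of 12.5%. A fall that is not called is not shown to be absent, since 64 of the 72 genes had a mean fall above zero in SPOCmut. The 95% interval in SPOCmut left room for a fall of at most 0.05 in 24 of them and of at most 0.1 in 55. At 24 h, 6 of the 72 were called lower in SPOCmut than in SpenKO, against 71 of the 86 genes that needed SPOC in part. The same treated SPOCmut values had sorted these classes, so this split follows in part from the sorting. Over all genes 110 of 270 (40.7%) were lower in SPOCmut than in SpenKO and 3 (1.11%) higher.

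In Nono, which encodes a paraspeckle protein of transcription and splicing, the treated mutant clones kept their untreated ratio. The gene lies on chromosome X at 101429651 to 101448593 (mm10, plus strand). Its ratio after 24 h was 0.607, 0.586 and 0.613 in C10, C2 and G1, and 0.609, 0.602 and 0.595 in the same clones untreated. In WT it went from 0.594 and 0.545 to 0.383 and 0.317. The treated clones overlapped the untreated ones and lay far above both treated WT libraries. The fall was 0.219 ± 0.0280 smaller in SPOCmut (SE, limma adjusted p = 9.45e-05), and 0.119% of the WT fall remained.

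Pdzd4, a PDZ domain protein, gave similar values. It stood at 0.590, 0.591 and 0.588 in treated SPOCmut, at 0.617, 0.593 and 0.589 untreated, and at 0.246 and 0.280 in treated WT. The treated clones lay within 0.00344 of each other, and the difference from WT at 24 h was 0.327 ± 0.0136 (SE, limma adjusted p = 9.75e-09). An antisense gene, Gm14817, overlaps Pdzd4, and the strand setting of the counting is not given in the sources used here. Pcyt1b, an enzyme of phosphatidylcholine synthesis, stood at 0.472, 0.519 and 0.443 in treated SPOCmut against 0.174 and 0.180 in treated WT. Its untreated values were 0.519, 0.495 and 0.530 in SPOCmut and 0.480 and 0.449 in WT, so the treated clones again overlapped or neared the untreated ones (difference at 24 h 0.301 ± 0.0204, SE, limma adjusted p = 3.70e-07).

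The genes with the largest WT falls in this class included 2 ubiquitin ligase genes. Pja1, an E3 ubiquitin ligase, reached 0.0625 and 0.0714 in treated WT but 0.269, 0.423 and 0.600 in treated SPOCmut. These 3 clones differed widely, and C10 lay well below its own untreated 0.469. Cul4b, the scaffold of a cullin-RING ubiquitin ligase, was steadier, at 0.415, 0.479 and 0.509 in treated SPOCmut against 0.220 and 0.158 in treated WT. Its retained share was 10.9%, against 25.9% for Pja1. Itgb1bp2 (melusin), a muscle integrin-binding protein, stood at 0.555, 0.482 and 0.532 against 0.112 and 0.191. Its difference of 0.372 ± 0.0347 (SE, limma adjusted p = 3.32e-06) was the second largest among called genes with non-overlapping groups.

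The other large differences at 24 h followed the same order of groups. Kis2, a noncoding transcript, differed by 0.356 ± 0.0515, Mamld1, a transcriptional coactivator, by 0.333 ± 0.0578, and Porcn, the acyltransferase that lipidates Wnt proteins, by 0.294 ± 0.0457 (SE, limma adjusted p = 9.05e-05, 0.000352 and 0.000154). Mamld1 also rested on a low untreated ratio, 0.224 and 0.298 in WT and 0.179, 0.324 and 0.435 in SPOCmut. In WT it stood at 0.726 and 0.699 after 3 h, far above both its untreated and its 24 h level. Gm10474 differed by 0.288 ± 0.0715, with untreated clones spread from 0.391 to 0.575. The calls for the difference of responses rested on single libraries in 4 genes. Gm10474 lost it without any of 6 single libraries (0.205 to 0.307), Ccdc120 without the first untreated (0.184) or the first treated (0.228) WT library, and Mamld1 without the second untreated WT library (0.245). Pja1 lost it without any single library (0.276 to 0.390) except treated C10. Ccdc120, a centriole and cytohesin-binding protein, differed by 0.228 ± 0.0534, with a retained share of 29.8%. Without treated G1 its ratio in SPOCmut fell by 0.137, which was called.

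The largest difference of all, in Eras, is less secure than its size. Eras, an ES cell Ras protein, stood at 0.500, 0.500 and 0.538 in treated SPOCmut and at 0.0476 and 0.161 in treated WT, a difference of 0.408 ± 0.0755 (SE, limma adjusted p = 0.000522). Untreated, it ranged from 0.435 to 0.645 in SPOCmut and stood at 0.429 and 0.296 in WT. The difference of the responses, 0.264 ± 0.107, missed the threshold (limma adjusted p = 0.0536), but passed it without untreated C10 (0.333), the second untreated WT library (0.330) or the second treated one (0.321). Cybb, the catalytic subunit of the phagocyte NADPH oxidase, showed the same limit more strongly. It stood at 0.742, 0.683 and 0.797 in treated SPOCmut against 0.567 and 0.321 in WT, but at 0.717, 0.707 and 0.750 in the untreated clones. Its difference of responses, 0.103, was not called, but was 0.226 and called without the first treated WT library. Eras and Cybb, with the coagulation factor gene F8 (named after its values were seen), were the 3 genes higher in SPOCmut than in SpenKO at 24 h.

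The partly dependent genes had the largest median fall in WT of the 5 classes and stayed between treated WT and the untreated level in SPOCmut. Their class median in WT went from 0.503 to 0.246, a median fall of 0.247, and in SPOCmut from 0.517 to 0.410, a median fall of 0.0967. The median retained share was 39.4%, with a range from 12.0% to 68.8%. In all 86 genes the 3 treated clones lay below the 3 untreated ones, as the calls of this class favour.

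Firre, a long noncoding RNA that organizes nuclear structure, varied little between replicates. It stood at 0.498, 0.512 and 0.501 in treated SPOCmut, at 0.657, 0.646 and 0.643 untreated, and at 0.236 and 0.223 in treated WT. No 2 of these groups overlapped, and the difference at 24 h was 0.274 ± 0.00887 (SE, limma adjusted p = 2.89e-09), with 36.4% of the WT fall remaining. Nhsl2, a Nance-Horan syndrome-like gene, kept more, 64.1%. It stood at 0.209, 0.186 and 0.227 in treated SPOCmut, at 0.476, 0.441 and 0.438 untreated, and at 0.0647 and 0.0552 in treated WT. Cd99l2, an adhesion protein, Phka1, a phosphorylase kinase subunit, and Zc3h12b, a CCCH zinc finger protein of the regnase family, kept 67.4%, 68.8% and 57.8%. Without the first treated WT library the differences at 24 h of Phka1 (0.0751) and Zc3h12b (0.0581) lost their calls. The difference of responses of Phka1 lost its call without the first treated (0.0913) or the first untreated (0.0723) WT library.

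The X inactivation centre held 3 measured genes beside Xist itself, and all were higher in SPOCmut at 24 h, against 78.9% of all genes. Tsix, the antisense partner of Xist, stood at 0.352, 0.317 and 0.389 in treated SPOCmut and at 0.230 and 0.199 in treated WT. It kept 58.0% of the WT fall of 0.296, and Xist overlaps it, so reads of the pair cannot be told apart with certainty. In SpenKO, Tsix also stood lower after treatment, at 0.543 and 0.535 untreated and at 0.403 and 0.385 at 24 h. Treated SPOCmut and SpenKO were not called different (limma adjusted p = 0.115). Chic1, a palmitoylated membrane protein gene close to Xist, stood at 0.430, 0.462 and 0.468 against 0.228 and 0.257, and kept 24.2%. Nap1l2, a neuronal nucleosome assembly protein, differed by 0.282 ± 0.0873 (SE, limma adjusted p = 0.0122) but varied from 0.130 to 0.520 between treated clones, and 1 treated WT library lists it at 0, without which the difference of 0.263 was not called. Without treated C2 the difference was 0.172. Its difference of responses, 0.182, was called without treated G1 (0.267). Their retained shares thus ran from 19.3% to 58.0%.

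The 5 genes that fell in both lines with responses within 0.1 of each other were chosen by that interval, which does not show that their falls were equal. Eda, which encodes ectodysplasin, the TNF family ligand of skin appendage development, lies at chromosome X 99975606 to 100400760 (mm10, plus strand). It stood at 0.227, 0.222 and 0.258 in treated SPOCmut, at 0.481, 0.478 and 0.480 untreated, and at 0.158 and 0.206 in treated WT. Treated and untreated clones were far apart, and the fall was 0.244 in SPOCmut against 0.284 in WT. The difference of responses was 0.0403 ± 0.0214 (SE, limma adjusted p = 0.127), and at 24 h Eda was still higher in SPOCmut by 0.0539 ± 0.0151 (SE, limma adjusted p = 0.00727). Without the first treated WT library this difference was 0.0298 and no longer called. Without the second one the difference of responses, 0.0644, was called (limma adjusted p = 0.0191).

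Gabre, the epsilon subunit of the GABA-A receptor, stood at 0.354, 0.304 and 0.313 in treated SPOCmut, 0.490, 0.527 and 0.507 untreated, and 0.287 and 0.258 in treated WT. Its falls were 0.184 and 0.187, a difference of responses of 0.00264 ± 0.0343 (SE, limma adjusted p = 0.961). In WT, Gabre stood at 0.469 and 0.451 untreated but at 0.673 and 0.590 after 3 h, above its untreated and 24 h levels. Gabre stood at 0.354 and 0.362 in SpenKO at 24 h, a level that treated SPOCmut overlapped. Untreated SpenKO stood at 0.492 and 0.527, so the ratio of Gabre was also lower after treatment in SpenKO. Eda stood at 0.427 and 0.418 in treated SpenKO, above all treated clones, and at 0.494 and 0.489 in untreated SpenKO. Also in this class, 1700013H16Rik and Rpgr were named because the class is small. Their falls were 0.112 and 0.0514 in WT and 0.112 and 0.0335 in SPOCmut, so the allowed 0.1 is nearly as large as the first WT fall and larger than the other.

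**Figure D3:**
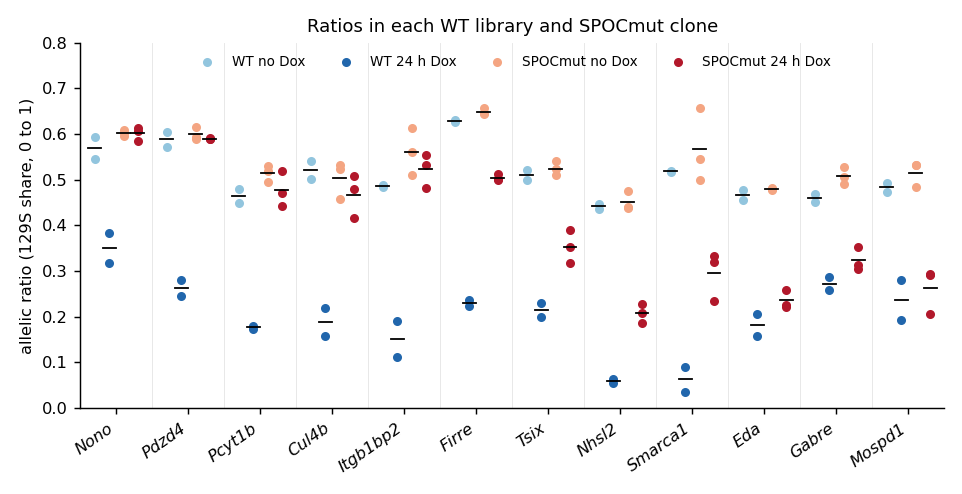
Allelic ratio (y axis, 0 to 0.8) of 12 genes in every WT library (blue, 2 per group) and SPOCmut clone (red, 3 per group), without doxycycline (light) and after 24 h (dark); black bars are group means. In the genes on the left, from Nono to Itgb1bp2, treated clones stay near untreated ones, while in Eda, Gabre and Mospd1 on the right they drop to near the treated WT libraries.

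The 5 largest falls in the mutant with non-overlapping clones were found in genes whose class could not be decided. Smarca1, an ISWI chromatin remodeller, stood at 0.333, 0.320 and 0.234 in treated SPOCmut, 0.657, 0.500 and 0.544 untreated, and 0.0909 and 0.0345 in treated WT. It kept 59.5% of the largest but one of the WT falls, and its difference of responses missed the threshold (0.184 ± 0.0761, SE, limma adjusted p = 0.0576). It passed with the replicate block, which also pairs the WT libraries by number (limma adjusted p = 0.0277). Without untreated C10 (0.229) or without treated G1 (0.215) it passed as well. Mospd1, a motile sperm domain protein of the endoplasmic reticulum, stood at 0.291, 0.205 and 0.293 against 0.280 and 0.192 in treated WT, with falls of 0.253 and 0.247. AW822252, Zc4h2, a zinc finger gene of neural development, and Fam3a, a FAM3 cytokine-like gene, fell by 0.301, 0.272 and 0.263 in SPOCmut. Their retained shares of 118%, 116% and 140% come with intervals for the difference of responses that span zero, from -0.268 to 0.176 in AW822252.

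Slc25a5, the mitochondrial ADP/ATP carrier, was the only gene called lower in SPOCmut at 24 h. It stood at 0.344, 0.430 and 0.402 against 0.462 and 0.581, a difference of -0.130 ± 0.0432 (SE, limma adjusted p = 0.0176). Untreated clones were as low, at 0.375, 0.377 and 0.409, and no fall was called in WT. The gene has many processed copies, so its ratio is uncertain, and the call was lost without the second WT library (-0.0697) or without C10 (-0.106).

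Escape genes are those expressed from the inactive X in many cell types. All 8 measured members were higher in SPOCmut at 24 h, against 78.9% of all genes, and all 8 fell in WT, against 88.9%. In SPOCmut 3 of the 8 fell, against 49.6%. Ddx3x, an RNA helicase, stood at 0.472, 0.486 and 0.487 in treated SPOCmut against 0.351 and 0.346 in treated WT, and kept 13.6% of the WT fall. Eif2s3x, a translation initiation factor subunit, stood at 0.469, 0.448 and 0.423 against 0.381 and 0.401, and its treated mean differed from its untreated mean by -0.00036. Its difference from WT, 0.0562, was 0.0463 and not called without the first treated WT library. Kdm6a, a histone H3 lysine demethylase, moved little, from 0.555, 0.564 and 0.557 to 0.552, 0.551 and 0.543 in SPOCmut and to 0.526 and 0.527 in WT. Its difference of 0.0223 ± 0.00792 (SE, limma adjusted p = 0.0237) fell to 0.0139 and lost its call when each line's untreated median was set to 0.5. It also lost its call without either treated WT library (0.0218 and 0.0228), without C10 (0.0208) or without C2 (0.0210).

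Lists of genes with a known role differed in their median retained share, although most of their members were higher in SPOCmut at 24 h. Over all 270 genes, 78.9% were higher, 49.6% fell in SPOCmut and 88.9% fell in WT, and several lists lay near these shares. Of 21 genes of RNA processing and translation, 20 were higher in SPOCmut and 6 fell in it, against 19 in WT, and the median retained share was 17.2%, the lowest of the lists. Of 32 chromatin and transcription regulators, 30 were higher and 17 fell in SPOCmut, with a median of 29.0%. The exceptions were Suv39h1 (a histone H3 lysine 9 methyltransferase, named after its values were seen) and Zfp449, a zinc finger gene that stayed between 0.431 and 0.558 in the treated clones and at 0.479 and 0.547 in WT. Of 13 ubiquitin and proteolysis genes, 11 were higher and 5 fell in SPOCmut, with a median of 28.8%. Ube2a, an E2 ubiquitin-conjugating enzyme, is listed at 1 in every untreated and 24 h library of WT and SPOCmut, so its ratio cannot show a change. Lonrf3, a RING finger protein, kept 56.8%, and its difference of responses, 0.114, was called without treated C10 (0.146).

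Neural genes and metabolic genes had higher median retained shares, while their counts are again read against 78.9% of all genes higher, 49.6% fallen in SPOCmut and 88.9% fallen in WT. Of 22 neural and synaptic genes all fell in WT, 16 fell in SPOCmut and 19 were higher at 24 h, with a median retained share of 45.3%. The cell adhesion molecule L1cam fell from 0.409, 0.643 and 0.458 to 0.304, 0.200 and 0.394 in SPOCmut, and its difference from WT of 0.166 ± 0.0745 was not called (limma adjusted p = 0.0601), but was called without treated C2 (0.216). Its difference of responses, 0.168, was called without untreated C2 (0.237). Slitrk4, a synaptic transmembrane protein, kept 85.3%. Of 30 genes of metabolism and mitochondria, 24 were higher and 1 lower, 14 fell in SPOCmut, and the median was 41.3%. Of 22 pluripotency, development and germline genes, 17 were higher and 10 fell in SPOCmut, with a median of 29.6%. Several of the latter belong to the Xlr and Rhox families of near-identical copies and are uncertain.

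Feeder fibroblasts could add RNA to every library, and a list of genes drawn up for them was counted in the same way. The list also holds Cybb, of the phagocyte NADPH oxidase, so it is not particular to fibroblasts. Of its 14 measured genes, 13 were higher in SPOCmut at 24 h (78.9% of all genes) and 8 fell in it (49.6% of all genes). The median retained share was 53.4% against 36.6% over all 225 genes. The untreated median of the list was 0.543 in SPOCmut and 0.513 in WT. Srpx, a secreted matrix protein, varied most, from 0.207 to 0.607 between the untreated WT libraries. The tables hold ratios and no levels, so the amount of feeder RNA is unknown and its part in the results was not tested.

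**Figure D4:**
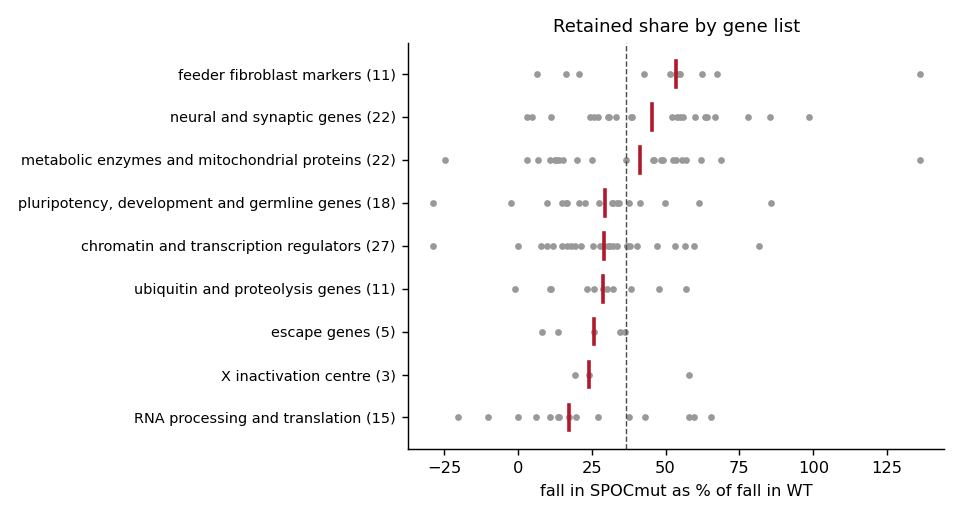
Retained share (x axis, fall in SPOCmut as a percentage of the fall in WT) of each gene with a called WT fall of at least 0.1, by gene list (rows, number of genes in brackets); grey points are genes, red bars the list medians and the dashed line the median of all 225 genes, 36.6%. Genes of 1 list spread widely around its median, and the medians run from 17.2% for RNA processing and translation to 53.4% for the list drawn up for feeder fibroblasts.

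Genes nearer to Xist had larger falls in both lines, while the difference between the lines showed little relation to distance. Genes of the table start from 6.05 to 103.5 Mb, and none lies beyond Xist. Over 269 genes, the distance from Xist and the fall had a Spearman correlation of -0.305 in WT and -0.304 in SPOCmut. The difference at 24 h had one of -0.0396, and the retained share one of -0.211 over 225 genes. These are descriptions across genes that share libraries, and without genes within 5 Mb of Xist the correlation with the difference was 0.00574. In windows of 20 Mb, the median retained share ran from 18.5% for genes that start between 20 and 40 Mb to 53.8% for those between 80 and 100 Mb. The window from 20 to 40 Mb held 18 genes that needed SPOC among its 36, and that from 40 to 60 Mb held 8 among 46. Over all genes the share was 26.7%. The other windows, in order of position, held 17 of 54, 17 of 76, 6 of 32 and 6 of 25. The classes thus differed in median distance from Xist, 61.9 Mb for genes that needed SPOC and 31.3 Mb for those that needed it in part. The fall in SPOCmut splits these classes and itself followed distance, so this difference follows in part from the sorting. The classes also differed in median gene length, 21.7 kb and 53.4 kb. Calls depend on precision too, and the median half-width of the interval was 0.0672 and 0.0535. Neither distance nor length is thereby shown to be a trait of SPOC dependence.

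**Figure D5:**
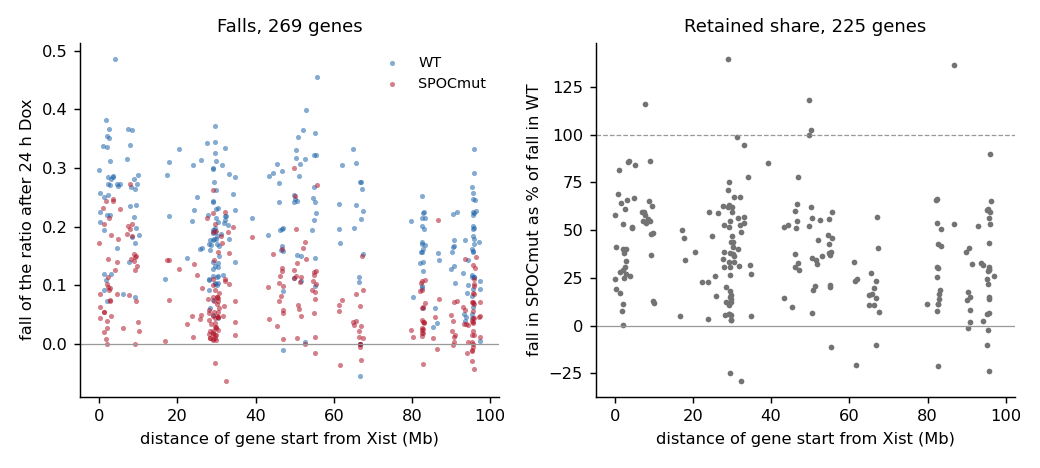
Left, fall of the allelic ratio after 24 h of doxycycline (y axis) against the distance of the gene start from Xist in Mb (x axis) in WT (blue) and SPOCmut (red), 269 genes; right, the retained share of 225 genes on the same x axis, with lines at 0 and 100%. Falls are larger near Xist in both lines (Spearman -0.305 and -0.304), and retained shares spread widely at every distance.

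The promoters of some genes that needed SPOC and some that fell without it were set side by side. These genes differ strongly in what the mutant kept, but they are not the extremes of the retained share. The 150 bases before the RefSeq start (GRCm38.p6, the build of mm10) are printed 5′ to 3′ on the strand of the gene, with each CG in capitals. Nono and Pcyt1b needed SPOC, and Eda and Gabre fell without it. They are at chrX:101429501-101429650, chrX:93654713-93654862, chrX:99975456-99975605 and, on the minus strand, chrX:72274722-72274871.
Nono: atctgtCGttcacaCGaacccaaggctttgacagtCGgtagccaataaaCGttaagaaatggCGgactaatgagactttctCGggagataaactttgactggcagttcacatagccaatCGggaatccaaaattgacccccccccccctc
Pcyt1b: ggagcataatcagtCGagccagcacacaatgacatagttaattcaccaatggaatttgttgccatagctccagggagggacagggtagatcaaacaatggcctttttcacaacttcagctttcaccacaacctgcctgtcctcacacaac
Eda: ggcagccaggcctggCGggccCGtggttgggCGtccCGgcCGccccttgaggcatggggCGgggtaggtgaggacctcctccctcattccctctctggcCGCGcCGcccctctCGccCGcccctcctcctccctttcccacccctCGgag
Gabre: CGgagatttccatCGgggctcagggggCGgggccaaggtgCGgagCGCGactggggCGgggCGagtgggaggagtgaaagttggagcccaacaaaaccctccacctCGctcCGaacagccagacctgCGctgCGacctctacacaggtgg

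These windows hold 7 CG in Nono, 1 in Pcyt1b and 12 each in Eda and Gabre. Over the 250 bases before the start, counts were 13, 1, 19 and 21. Across the classes the counts overlapped. The genes printed were picked and do not stand for their classes, since Mamld1 and Pdzd4, which also needed SPOC, had 29 and 17. Of the 208 genes with a RefSeq promoter whose start lay within 1000 bases of the table's (within 100 in 194), the 53 that needed SPOC had a median of 15 CG (quartiles 6 and 19) and the 66 that needed it in part a median of 11.5 (quartiles 7 and 19). The 4 that fell without it had a median of 20 (quartiles 16.5 and 21.8), with 9 in 1700013H16Rik. At least 10 CG were found in 66.0% of the promoters that needed SPOC and 68.2% of those that needed it in part. The share was 63.0% of the 208 and 37.8% of all 32851 promoters of the RefSeq table. CG reads the same on both strands, and its count is a description of these windows.

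The difference at 24 h was as frequent among genes that overlap no other annotated gene. Of 259 genes matched by symbol to the GENCODE M21 annotation, 57 overlapped another gene, 45 of them on the opposite strand. Of the 202 matched genes without an overlap, 161 (79.7%) were higher in SPOCmut at 24 h and 1 lower.

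Clones differed most in genes with widely spread ratios. Besides Nap1l2 and Pja1, the largest ranges among called genes were those of Slc25a43, a mitochondrial carrier (0.522, 0.250 and 0.571), Pqbp1, a polyglutamine-binding splicing factor (0.585, 0.488 and 0.339), and Prrg3, a vitamin K-dependent Gla protein (0.273, 0.514 and 0.426). Their differences from WT at 24 h rested on single libraries. Slc25a43 lost its call without the first treated WT library (0.181), C10 (0.239) or G1 (0.214), Pqbp1 without the second treated WT library (0.189) or C10 (0.178), and Prrg3 without the first treated WT library (0.169). Over all genes, G1 was the highest of the 3 in 118 genes, C10 in 81 and C2 in 71, and G1 was the lowest in 66, C10 in 97 and C2 in 107. G1 thus stood more often on the high side, and its median retained share of 31.5% was the lowest of the 3.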

How the data were processed

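The deposited value is a fraction from 0 to 1, the allelic ratio per gene and library, made by the authors; per the submitters' processing notes the tools included STAR 2.4.2a, Bowtie2 2.3.2 and featureCounts, with the build mm10. Per the labels' protocols, chromatin RNA libraries were made with the Illumina TruSeq stranded total RNA kit. For the numerator allele, the gene filters and the counting strand, nothing is given in the sources used here. Dox columns without a time were read as 24 h, the time in the labels. Deposited starts count from 0 (RefSeq starts were 1 higher in 123 of 255 matched genes), so starts printed here are 1 higher.

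Raw ratios of all 17 libraries (8 groups) were fitted in limma 3.58.1 (R 4.3.3) with no filter, and p-values were adjusted over 270 genes. The fit was tested on simulated data. Medians were compared by exact permutation tests. Treated and untreated SPOCmut libraries of 1 number are the same clone. Their deviations from the group means correlated at -0.0170, -0.113 and 0.148, and those of the WT libraries, which share only a number, at 0.101. Gene lists were written from general knowledge. Genes named are the 10 largest differences at 24 h, the gene lower, class members with the smallest difference of responses, the largest falls in SPOCmut, the largest WT falls among genes that needed SPOC, the widest clone ranges, extremes of each list and 10 fixed names. Members, lists and rules were chosen with earlier results of these data known. Promoters came from RefSeq; counts and figures used Python 3.11.15, pandas 2.3.3 and matplotlib 3.10.9. Some genes are not reported here.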

Additional observations from a re-analysis of the deposited data

Results flagged for a closer look

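The responses to 24 h of doxycycline differed between SPOCmut and WT by the test of the difference itself (limma, Benjamini-Hochberg) in 158 genes, each with the smaller fall in SPOCmut. Among the genes named, the response in SPOCmut minus that in WT was 0.361 in Pja1, 0.316 in Pdzd4, 0.297 in both Itgb1bp2 and Cul4b, 0.288 in Kis2, 0.281 in Mamld1 and 0.270 in Gm10474. It was 0.254 in Firre, 0.252 in Porcn, 0.251 in Pcyt1b, 0.234 in Ccdc120, 0.219 in Nono and 0.195 in Chic1. Smaller differences were found in Zc3h12b (0.143), Nhsl2 (0.137), Ddx3x (0.135), Tsix (0.124), Cd99l2 (0.109), Phka1 (0.105) and Eif2s3x (0.0801). No group holds 4 or more libraries, so single outlying libraries were not searched for.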

How the results depend on the processing

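No called result changed direction. No alternative was added after these results were seen, although rules were chosen with earlier results of these data known. Uncalled values took both signs in 5 of 43 named differences at 24 h (Xist, Zfp449, Slitrk4, Fam3a and Mospd1) and in 10 of 43 named differences of responses. Every alternative kept the side of the threshold for 28 and 29 of these and for 12 of 13 named falls in SPOCmut. The correlation of distance with the difference went from -0.0396 to 0.00574 without genes within 5 Mb of Xist. The count between the lines at 24 h, 214, ran from 183 to 214 when single libraries were left out. A minimum change of 0.1 left 79 falls in SPOCmut, 60 differences from SpenKO and 38 partly dependent genes. Benjamini-Yekutieli adjustment gave 67, 57 and 60 for the differences from SpenKO, partly dependent genes and genes with no WT fall. The genes that fell without SPOC numbered 0 with an interval of 0.05 and 21 with 0.15, and 2 to 6 when single libraries were left out (2 without the second treated WT library, 3 without either untreated WT library or untreated G1). Genes with no WT fall numbered 28 to 53 (53 without the second untreated WT library), and untreated differences 0 to 2 (2 without either treated WT library, 1 without treated G1). The retained share was 28.4% on the log ratio scale and 33.5% to 38.2% without single libraries. With a fixed replicate block (clone in SPOCmut, only library number in WT and SpenKO), genes that fell without SPOC numbered 10. SPOCmut falls numbered 135 under this block (6 lost, 7 gained). The difference of responses then had 159 calls (5 lost, 6 gained), and of the 43 named differences of responses and 13 named falls run under it, the difference of responses of Smarca1 gained a call. The cause of these shifts was not tested. Unknown depth limits what can be said of genes with widely spread ratios.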
